A study of Homo sapiens with 4 samples.

Results

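The HOX genes were examined in 4 RNA libraries from human thyroid cancer cells, as 38 of the 39 human HOX genes, out of 58884 Ensembl genes in the table of TPM values (reads divided by gene length, scaled so that each library has the same total). Members were taken by symbol, whatever their level, though the list was chosen with earlier results of these data known. Antisense RNAs were kept apart. The 4 groups, with 1 library each, were 8505C cells with a CRABP1-overexpressing vector, 8505C cells with the empty vector, FTC-133 cells with the CRABP1-overexpressing vector and FTC-133 cells with the empty vector. 8505C is a line from an anaplastic thyroid carcinoma, a dedifferentiated tumour, and FTC-133 a line from a follicular thyroid carcinoma. CRABP1 encodes a cytoplasmic protein that binds retinoic acid. All groups were transfected, so none is untreated, and the labels do not say whether a library is 1 clone or a mixed culture. Whether the libraries of a line came from separate cultures is not stated either, so any p-value rests on how far apart these 4 libraries lie, which may be technical.

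HOX genes encode homeodomain transcription factors that give cells their position along the head-to-tail axis. They lie side by side in the HOXA, HOXB, HOXC and HOXD clusters, and genes at the same place in each cluster form a paralog group, numbered from the anterior end. Adult cells keep part of the pattern of the region they came from, with Polycomb proteins holding the other HOX genes silent and Trithorax proteins keeping them active. Retinoic acid induces the anterior genes of the clusters during development, and in mice HOX genes of paralog group 3, together with Hoxa5, act in forming the thyroid and its neighbouring glands.

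CRABP1 itself was at 537 TPM with the overexpression vector and 0 TPM with the empty vector in 8505C, and at 385 TPM with the overexpression vector and 0 TPM with the empty vector in FTC-133, as labelled. The libraries held between 19174544 and 20331552 reads behind the TPM values, and mitochondrially encoded genes took 25.9% to 28.6% of the TPM. Of 6 markers of thyroid follicular cells, 1 reached 1 TPM in 8505C and 3 in FTC-133. SLC5A5, the iodide transporter, was listed at 0 in all 4 libraries. PAX8, a thyroid transcription factor, was at 0.161 and 0.24 TPM in 8505C with CRABP1 and with vector, against 143 and 100 TPM in FTC-133, whereas NKX2-1 was present in all 4 (113, 118, 17.7 and 44.7 TPM). FOXE1, another thyroid factor, had 0.057 and 0.0568 TPM in 8505C, against 15.2 and 8.06 TPM in FTC-133. The 5 epithelial markers summed to 1365 and 1604 TPM in 8505C with CRABP1 and with vector, against 169 and 171 TPM in FTC-133. KRT18 and KRT8 made up nearly all of it, while EPCAM had 0.235 and 0.546 TPM in 8505C against 5.87 and 6.13 TPM in FTC-133, and CDH1 0 TPM in both 8505C libraries against 0.155 and 0.241 TPM in FTC-133. Summed TPM of 3 leukocyte markers lay between 28.9 and 56.7 in 8505C, nearly all from CD14, and between 0.407 and 0.689 in FTC-133, with CD3E at 0 in FTC-133 and at 0 or a single read in 8505C. The 3 endothelial markers, CDH5 above all, with PECAM1, summed to 100.1 and 106.8 TPM in 8505C and to 1.84 and 2.57 TPM in FTC-133, and the 4 fibroblast markers to 9.68 and 4.54 TPM in 8505C and to 211 and 424 TPM in FTC-133, mostly COL1A1 and LUM. With CRABP1, LUM and DCN had 6.42 and 2.45 TPM in 8505C against 1.99 and 1.21 TPM with vector, and COL1A1 had 175 TPM in FTC-133 against 388 TPM with vector. The part of these differences in the HOX values was not tested. In total RNA, fewer cells of a type and less RNA per cell cannot be told apart.

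The lines had different HOX patterns, and in each line the CRABP1 and vector libraries were much alike. The 38 genes summed to 49.1 TPM in 8505C with CRABP1 and 41.3 TPM in 8505C with vector, against 224 TPM in FTC-133 with CRABP1 and 194 TPM in FTC-133 with vector. The sum was thus 4.55-fold lower in 8505C between the CRABP1 libraries and 4.68-fold lower between the vector libraries. HOXC genes held more of the HOX TPM in 8505C than any other cluster, with 52.9% with CRABP1 and 49.2% with vector, whereas in FTC-133 they held 10.5% with CRABP1 and 13.3% with vector. HOXB genes held 17.6% and 13.2% in 8505C with CRABP1 and with vector, and 64.5% and 59.0% in FTC-133. The HOXD share was 0.426% and 0% in 8505C, against 7.48% and 7.57% in FTC-133. Genes of paralog groups 9 to 13, the posterior end, held 43.9% and 39.8% of the HOX TPM in 8505C. In FTC-133 they held 25.7% with CRABP1 and 15.4% with vector. Their summed level was nonetheless lower in 8505C, at 21.5 and 16.4 TPM with CRABP1 and with vector, against 57.4 and 29.8 TPM in FTC-133.

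**Figure D1:**
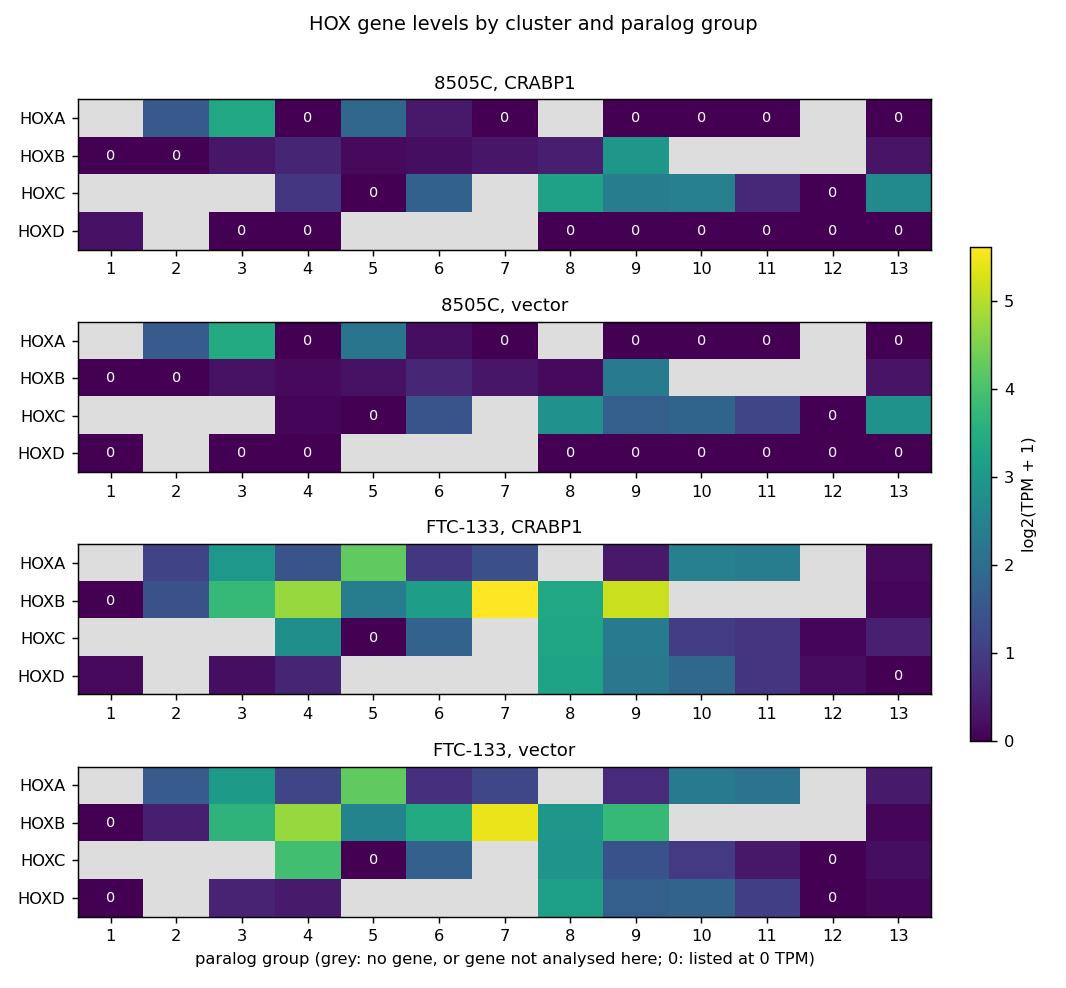
Levels of 38 HOX genes as log2(TPM + 1), by cluster (rows) and paralog group (columns), with 1 panel per library; grey squares are places with no gene or with a gene not analysed here, and a 0 marks a gene listed at 0 TPM. The HOXB row is bright in both FTC-133 panels and dark except for group 9 in both 8505C panels, and the HOXD row holds 0 from group 8 to group 13 in both 8505C panels.

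**Figure D2:**
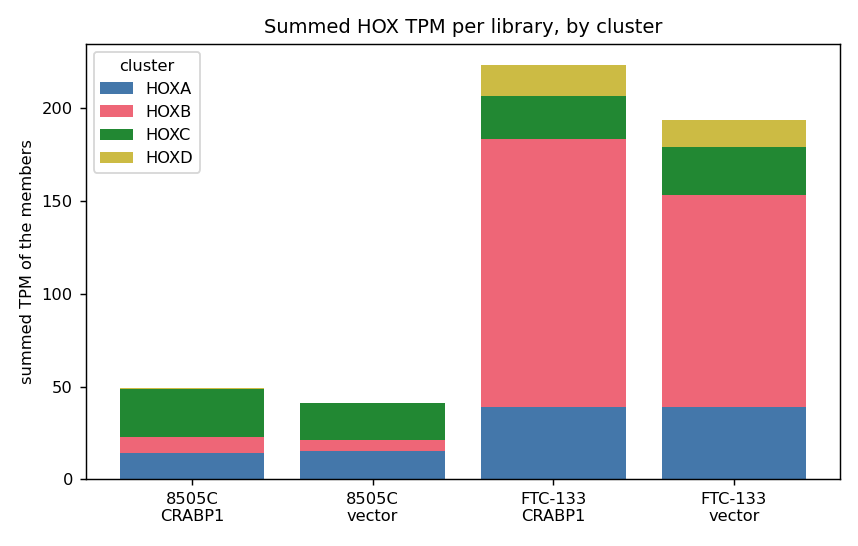
Summed TPM of the members of each cluster (stacked bars) in each library. The total is 49.1 and 41.3 TPM in 8505C with CRABP1 and with vector, and 224 and 194 TPM in FTC-133, where HOXB makes up 144 and 114 TPM.

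Of the 38 genes, 26 reached 1 TPM in at least 1 library. The mean of both libraries of a line was at least 1 TPM for 9 genes in 8505C and for 22 in FTC-133, and 7 genes were in both sets. HOXC10 and HOXC13 were the 2 that reached it in 8505C and not in FTC-133. Among all 58884 genes, 17561 had a mean of at least 1 TPM in 8505C and 19899 in FTC-133. Both 8505C libraries listed 18 HOX genes at 0, and 13 of these had reads in both FTC-133 libraries. The like share over all genes was not counted, so these numbers are a description. In 8505C the highest member was HOXA3, and HOXC8, HOXB9 and HOXC13 came next in an order that differed between the libraries. In FTC-133 the highest was HOXB7, and HOXB9 ranked second with CRABP1, while HOXB4 did with vector; neighbours in these orders were not tested against each other.

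The line difference was tested with limma on log2(TPM + 1), where the CRABP1 and vector libraries of a line served as its replicates with 1 residual degree of freedom. A gene was called past 2-fold at an adjusted p of at most 0.05. Of the 21 HOX genes that averaged 1 TPM or more over the 4 libraries, 14 fell and 1 rose in 8505C relative to FTC-133. Among all 19513 genes tested, 15.6% were called lower and 7.99% higher. The median log2 difference of the 21 genes was -2.22, against -0.19 over all genes tested; median-ratio scaling would raise the line difference of all genes by 0.16. Of the 21, 12 had an 8505C mean under 1 TPM and 2 an FTC-133 mean under 1 TPM, so they passed the filter through the line in which they were high and their count is a description. All calls were lost, HOX genes included, when either 8505C library was left out. Fits that left out a library also had no transfection term, so the part of each change in the lost calls was not tested. Without FTC-133 with CRABP1 there were 7 lower calls among HOX genes, and without FTC-133 with vector 9. In these fits a lone library is assumed to vary like those of the other line.

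HOXB7, HOXB4 and HOXB3 had the largest log2 falls of the HOX genes tested. HOXB7 (ENSG00000260027; GRCh38, chromosome 17, minus strand), which is overexpressed in several carcinomas, had 0.258 and 0.257 TPM in 8505C with CRABP1 and with vector, from 2 reads each, against 48.0 and 42.4 TPM in FTC-133, and fell by 5.20 on the log2 scale (SE 0.18, limma adjusted p = 0.00336). HOXB4, known for expanding blood stem cells, had 0.492 and 0.0982 TPM in 8505C with CRABP1 and with vector, against 26.03 and 25.9 TPM in FTC-133, and fell by 4.40 (SE 0.23, limma adjusted p = 0.00447). HOXB3, a group 3 gene, had 0.264 and 0.185 TPM in 8505C, against 12.5 and 11.5 TPM in FTC-133. As plain TPM ratios, HOXB3 was 47.2-fold lower in 8505C between the CRABP1 libraries (95% counting interval 25.4 to 99.0) and 62.5-fold lower between the vector libraries (30.1 to 156). These genes were picked by the size of their fall, so the lack of overlap between the lines followed from that choice. Their 8505C values rest on few reads, with 9 with CRABP1 and 2 with vector for HOXB4.

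HOXB5, HOXB6 and HOXB8 followed the same course at lower levels. HOXB5, which acts in lung and gut nerve development, had 0.0966 and 0.193 TPM in 8505C with CRABP1 and with vector, against 4.18 and 4.77 TPM in FTC-133. HOXB6 had 0.151 and 0.528 TPM in 8505C with CRABP1 and with vector, against 7.86 and 9.73 TPM in FTC-133. HOXB8, which in mice marks a microglial lineage, had 0.385 and 0.0958 TPM in 8505C with CRABP1 and with vector, against 9.24 and 6.90 TPM in FTC-133. They fell by 2.26 to 2.88 on the log2 scale, with limma adjusted p-values between 0.00884 and 0.018. The calls held in 7 of 10 alternatives for HOXB5, 5 of 10 for HOXB6 and 6 of 10 for HOXB8. In 8505C with CRABP1 and with vector, HOXB5 had 1 and 2 reads, HOXB6 2 and 7, and HOXB8 4 and 1. HOXB2, an anterior gene that patterns the hindbrain, had 0 TPM in both 8505C libraries, against 1.62 and 0.393 TPM in FTC-133 with CRABP1 and with vector, too low a mean for the test.

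HOXB9 stood apart from its neighbours because it was present in both lines. This posterior gene, which in mice acts in mammary gland and rib patterning (GRCh38, chromosome 17, 48621159 to 48626356, minus strand; its exons overlap no other gene of GENCODE 29), had 6.79 TPM with CRABP1 and 3.88 TPM with vector in 8505C, from 89 and 51 reads. In FTC-133 it had 34.7 TPM with CRABP1 and 12.5 TPM with vector, from 473 and 176 reads. All 4 values were distinct, with the 8505C libraries below the FTC-133 libraries and the CRABP1 library above the vector library in each line. HOXB9 fell by 1.83 on the log2 scale in 8505C (SE 0.24, limma adjusted p = 0.0157). The call was lost with no filter, without the transfection term and without each library in turn, and the log2 difference was -1.13 without FTC-133 with CRABP1, with limma adjusted p-values between 0.00927 and 0.284 over the alternatives.

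The HOXD cluster had next to no reads in 8505C. Its 9 genes together had 2 reads in 8505C with CRABP1, both on HOXD1, and 0 reads in 8505C with vector, against 212 and 199 reads in FTC-133 with CRABP1 and with vector. HOXD8, HOXD9 and HOXD10, which pattern the trunk and limbs, had 0 TPM in both 8505C libraries. In FTC-133 with CRABP1 and with vector, HOXD8 had 8.51 and 8.03 TPM, HOXD9 3.75 and 2.26 TPM, and HOXD10 2.75 and 2.46 TPM. Against a floor of 3 reads per 8505C library, the means were at least 36.8-fold lower for HOXD8, 9.51-fold for HOXD9 and 11.9-fold for HOXD10. All 3 were called by limma (adjusted p = 0.00858, 0.034 and 0.0359). They entered that test only through their FTC-133 values, and their 8505C values were 0 without spread, so these p-values are a description. HOXD11, a limb gene, had 0 TPM in both 8505C libraries, against 0.808 and 1.04 TPM in FTC-133 with CRABP1 and with vector.

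The posterior HOXA genes were also at 0 in 8505C, while HOXA2, HOXA3 and HOXA5 had reads there. HOXA10 and HOXA11, both known for their part in uterus development, had 0 TPM in both 8505C libraries. In FTC-133 with CRABP1 and with vector, HOXA10 had 4.43 and 4.05 TPM from 87 and 82 reads, and HOXA11 had 4.11 and 3.42 TPM from 50 and 43 reads. They were at least 26.6-fold and 14.7-fold lower in 8505C (limma adjusted p = 0.018 and 0.0215). Both entered the test only through their FTC-133 values, so these p-values are a description too. HOXA4 and HOXA7 also had 0 TPM in both 8505C libraries, against 1.74 and 1.26 TPM for HOXA4 and 1.57 and 1.30 TPM for HOXA7 in FTC-133 with CRABP1 and with vector.

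HOXA3, which in mice is needed for the thymus and parathyroid and for a normal thyroid, had 9.39 and 9.72 TPM in 8505C with CRABP1 and with vector, against 6.91 and 7.29 TPM in FTC-133. The 8505C libraries were above the FTC-133 libraries by 1.36-fold with CRABP1 (1.10 to 1.68) and 1.33-fold with vector (1.09 to 1.64), and the difference did not pass the limma test (log2 difference 0.38, SE 0.16, adjusted p = 0.150). HOXA2, which patterns the hindbrain and pharyngeal arches, had 1.94 and 2.11 TPM in 8505C with CRABP1 and with vector, against 1.22 and 2.05 TPM in FTC-133, so the lines overlapped. HOXA5, which in mice acts in lung and thyroid development, had 2.64 and 3.54 TPM in 8505C with CRABP1 and with vector, against 17.8 and 17.9 TPM in FTC-133, and fell by 2.22 on the log2 scale (SE 0.19, limma adjusted p = 0.0079).

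**Figure D3:**
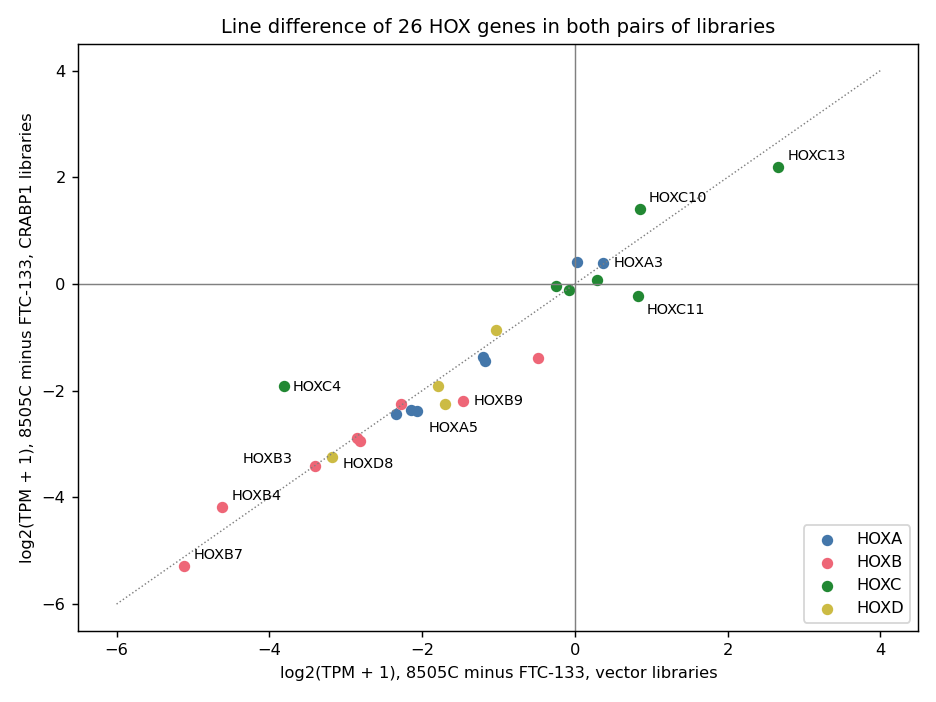
Each point is 1 of the 26 HOX genes with at least 1 TPM in any library, with its log2(TPM + 1) difference of 8505C minus FTC-133 between the vector libraries (horizontal axis) and between the CRABP1 libraries (vertical axis), coloured by cluster; the dotted line marks equal differences. HOXB, HOXD and most HOXA genes lie in the lower left and HOXC13 at the upper right, and HOXC4 is farthest from the dotted line.

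HOXC was the cluster whose sum was alike in the lines, at 25.96 and 20.3 TPM in 8505C with CRABP1 and with vector and 23.5 and 25.8 TPM in FTC-133, but its genes differed. HOXC13, a gene of hair and nail formation, had 5.44 and 6.34 TPM in 8505C with CRABP1 and with vector, from 67 and 78 reads, against 0.402 and 0.156 TPM in FTC-133, from 5 and 2 reads. It rose by 2.43 on the log2 scale (SE 0.31, limma adjusted p = 0.0152), the single member called higher, and the plain ratio was 13.5 between the CRABP1 libraries (5.69 to 44.3) and 40.7 between the vector libraries (11.2 to 351). HOXC10, a gene of lumbar spinal cord and hindlimb, had 4.41 and 2.49 TPM in 8505C with CRABP1 and with vector, against 1.04 and 0.930 TPM in FTC-133. Its log2 difference of 1.13 did not pass the test (SE 0.32, limma adjusted p = 0.0692). The plain ratios were 4.24 with CRABP1 (2.23 to 8.33) and 2.68 with vector (1.28 to 5.56). Their intervals lay above 1 but cover counting error only, not the spread between cultures.

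HOXC6, HOXC8 and HOXC9 were at like levels in the lines. HOXC8, which sets motor neuron identity at forelimb levels, had 8.24 and 6.18 TPM in 8505C with CRABP1 and with vector, against 8.94 and 6.54 TPM in FTC-133. HOXC6 had 2.34 and 1.76 TPM in 8505C with CRABP1 and with vector, against 2.41 and 2.28 TPM in FTC-133. HOXC9, a gene of thoracic motor neurons, had 4.14 and 2.24 TPM in 8505C with CRABP1 and with vector, against 3.87 and 1.65 TPM in FTC-133. Their log2 line differences were -0.14, -0.087 and 0.18 for HOXC6, HOXC8 and HOXC9 (SE 0.28, 0.17 and 0.26), with limma adjusted p-values of 0.723, 0.712 and 0.606; the direction of HOXC8 turned under median-ratio scaling, to 0.057.

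HOXC4, the most anterior HOXC gene, differed by line and by transfection. It had 0.855 TPM with CRABP1 and 0.0710 TPM with vector in 8505C, from 12 reads and 1 read. In FTC-133 it had 5.96 TPM with CRABP1 and 14.01 TPM with vector, from 86 and 208 reads. It fell by 2.86 on the log2 scale in 8505C (SE 0.56, limma adjusted p = 0.0323), a call that held in only 3 of 11 alternatives. Those that lost it included a pseudocount of 0.1, no filter, no trend, removal of mitochondrial genes and leaving out either 8505C library. Its exons share 484 bases, 17.8% of their length, with HOXC6, whose levels are given above, and how the counting treated shared bases is not given in the sources used here.

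The promoters of 4 genes that show these patterns are given from RefSeq (GRCh38.p14, from 250 bases before to 50 after the start, 5′ to 3′ on the gene's strand), with every CG dinucleotide in capitals, since CpG-rich promoters are where Polycomb and Trithorax proteins act. HOXD8 (chr2:176129455-176129754, plus strand) and HOXA11 (chr7:27185183-27185482, minus strand) were at 0 in 8505C and expressed in FTC-133, HOXA2 (chr7:27102634-27102933, minus strand) was present in both, and HOXC4 (chr12:54016638-54016937, plus strand), whose window RefSeq also lists for HOXC5, a gene at 0 in all 4 libraries, differed with CRABP1 in opposite directions in the lines.
HOXD8: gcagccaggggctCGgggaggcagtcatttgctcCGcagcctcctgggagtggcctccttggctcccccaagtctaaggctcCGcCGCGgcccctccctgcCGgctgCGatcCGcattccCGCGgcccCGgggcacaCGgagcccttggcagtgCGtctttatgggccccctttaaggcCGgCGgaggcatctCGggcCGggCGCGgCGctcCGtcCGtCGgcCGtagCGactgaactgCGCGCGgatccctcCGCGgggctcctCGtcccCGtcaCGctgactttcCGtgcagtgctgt
HOXA11: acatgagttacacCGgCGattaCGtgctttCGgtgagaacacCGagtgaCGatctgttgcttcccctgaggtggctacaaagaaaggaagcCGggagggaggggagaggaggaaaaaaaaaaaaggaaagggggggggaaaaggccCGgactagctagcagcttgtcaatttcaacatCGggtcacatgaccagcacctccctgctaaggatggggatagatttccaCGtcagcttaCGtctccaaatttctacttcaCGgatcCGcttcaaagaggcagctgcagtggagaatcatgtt
HOXA2: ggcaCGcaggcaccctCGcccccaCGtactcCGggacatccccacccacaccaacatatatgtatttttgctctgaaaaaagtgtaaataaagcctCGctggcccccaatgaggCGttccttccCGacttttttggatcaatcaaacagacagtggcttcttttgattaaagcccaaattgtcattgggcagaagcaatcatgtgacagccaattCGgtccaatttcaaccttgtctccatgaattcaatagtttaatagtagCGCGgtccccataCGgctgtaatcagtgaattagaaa
HOXC4: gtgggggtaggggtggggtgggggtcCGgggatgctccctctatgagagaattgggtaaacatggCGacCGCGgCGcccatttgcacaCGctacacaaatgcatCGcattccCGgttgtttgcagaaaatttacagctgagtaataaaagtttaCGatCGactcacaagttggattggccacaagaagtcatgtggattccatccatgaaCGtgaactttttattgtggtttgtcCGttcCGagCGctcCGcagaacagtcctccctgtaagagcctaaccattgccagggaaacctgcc

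These windows held 34 CG in HOXD8, 13 in HOXA11, 11 in HOXA2 and 15 in HOXC4, so the pair at 0 in 8505C spanned both dense and average windows. RefSeq windows were at hand for 20 of the 38 genes, 27 windows in all, with a median of 22 CG against 14 over all 35116 windows. The 11 genes at 0 in both 8505C libraries and above 0 in both FTC-133 libraries had 12 windows with a median of 25 CG. The exact letters AGGTCA, a strict form of the retinoic acid receptor motif, were searched on both strands with overlaps allowed. They were in 0 of the 27 windows and in 13.8% of all windows. Looser forms were left out of this count, and some are in the printed windows. HOXA11 holds GGGTCA, and HOXC4 and HOXD8 hold AGTTCA on the opposite strand. The count therefore does not show that HOX windows lack the motif. A match to AGGTCA or its absence describes those letters only, and known retinoic acid response elements of HOX clusters can lie outside such windows.

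With CRABP1 in FTC-133, HOXB9 was higher and HOXC4 lower, and most other HOX genes differed little. Within a line there was no replicate, so genes were counted past 2-fold on log2(TPM + 1), with no test. Of 22 HOX genes that averaged 1 TPM or more in FTC-133, 1 was past 2-fold higher and 1 lower, a share near that of all genes measured, of which 6.02% were higher and 4.92% lower, or 10.9% in either direction. Their median log2 ratio was 0.11, against 0.055 over all genes. With the background limited to protein-coding genes of 20 reads or more, 3.52% were past 2-fold in either direction.

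HOXB9, at 34.7 TPM with CRABP1 and 12.5 TPM with vector in FTC-133, was 2.78-fold higher (2.33 to 3.32), and HOXC4, at 5.96 TPM with CRABP1 and 14.01 TPM with vector, was 2.35-fold lower (1.81 to 3.05). HOXB2 and HOXC9 had plain ratios past 2-fold that the pseudocount of 1 kept under the rule. HOXB2 had 20 reads with CRABP1 and 5 with vector, a ratio of 4.13 (1.503 to 14.1) and a log2(TPM + 1) difference of 0.91. HOXC9 had 34 reads with CRABP1 and 15 with vector, a ratio of 2.34 (1.24 to 4.62) and a log2(TPM + 1) difference of 0.88. The abundant HOXB genes differed less, with HOXB7 at 48.0 TPM with CRABP1 and 42.4 TPM with vector (1.13-fold, 0.977 to 1.31) and HOXB4 at 26.03 and 25.9 TPM. HOXB9 made up most of the difference between HOXB sums of 144 TPM with CRABP1 and 114 TPM with vector.

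With CRABP1 in 8505C, no HOX gene of the 9 measured was past 2-fold, while 3.7% of all genes were higher and 4.07% lower, or 7.77% in either direction; of protein-coding genes with 20 reads or more, 0.741% were. The median log2 ratio of the 9 was 0.27, against 0.016 over all genes. HOXB9 was again higher, at 6.79 TPM with CRABP1 and 3.88 TPM with vector, a plain ratio of 1.75 (1.23 to 2.52). HOXC10 was at 4.41 TPM with CRABP1 and 2.49 TPM with vector (1.77-fold, 1.12 to 2.94), and HOXC9 at 4.14 and 2.24 TPM (1.85-fold, 1.03 to 3.42). HOXC8 had 8.24 TPM with CRABP1 and 6.18 TPM with vector, and its interval of 0.947 to 1.91 held 1. The HOXC genes below the filter went both ways: HOXC4 had 12 reads with CRABP1 and 1 with vector, a ratio of 12.04 (1.78 to 515), and HOXC11, a posterior gene, had 9 reads with CRABP1 and 21 with vector, a ratio of 0.430 (0.173 to 0.979). In FTC-133 HOXC11 had 14 reads with CRABP1 and 5 with vector, a ratio of 2.89 (0.983 to 10.2).

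**Figure D4:**
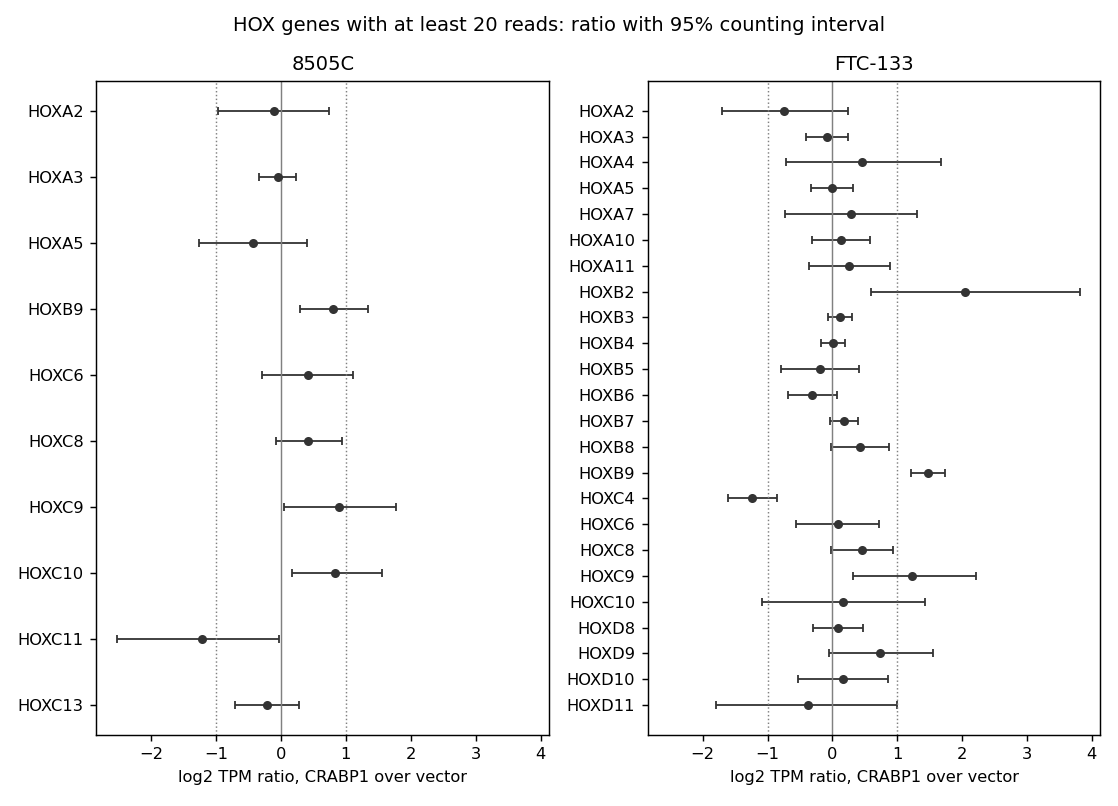
log2 TPM ratio of CRABP1 over vector for each HOX gene with at least 20 reads in the pair of libraries of 8505C (left) or FTC-133 (right); bars are 95% Clopper-Pearson counting intervals, and dotted lines mark 2-fold. HOXB9 and HOXC9 lie to the right of 0 in both lines with intervals that exclude it, at 1.75-fold and 1.85-fold in 8505C and 2.78-fold and 2.34-fold in FTC-133, and HOXC4 lies past 2-fold lower in FTC-133.

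Over both lines, limma with cell line as a term called 0 of the 21 HOX genes for CRABP1, with a smallest adjusted p of 0.920. Over all 19513 genes, CRABP1 alone was called, 0.00512%. At an unadjusted p under 0.05 there were 2 of the 21 HOX genes, beside 923 of all 19513 genes. HOXB9 had a log2 difference of 1.04 (SE 0.24, limma unadjusted p = 0.0149), higher with CRABP1 in both lines, and HOXC9 one of 0.77 (SE 0.26, limma unadjusted p = 0.0438), also higher in both lines; both failed the adjustment over all genes. Whether the effect of CRABP1 differed between the lines could not be tested, since that term leaves no residual degree of freedom.

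The remaining 12 HOX genes stayed under 1 TPM in every library. HOXB1 and HOXC5 were listed at 0 in all 4; GENCODE 29 places other gene models over 59.9% and 33.9% of the HOXC5 exons. HOXA6 had 0.307 and 0.153 TPM in 8505C with CRABP1 and with vector, against 0.885 and 0.715 TPM in FTC-133, the highest of these genes. HOXA9, a gene linked to leukaemia, had 0 reads in both 8505C libraries, against 5 and 10 reads in FTC-133 with CRABP1 and with vector. HOXA13, HOXD3 and HOXD4 also had 0 reads in both 8505C libraries, against 3 to 9 reads in FTC-133. HOXB13, a prostate gene, had 4 reads in each 8505C library and 1 in each FTC-133 library. HOXC12, HOXD1, HOXD12 and HOXD13 had at most 2 reads in any library, a level at which no difference was detectable.

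Of 24 noncoding RNAs of the clusters in the table, 12 were tested between the lines, and 1 rose and 6 fell in 8505C, against 7.99% higher and 15.6% lower among all genes tested. Of the 6 that fell, 5 had an 8505C mean under 1 TPM, and the one that rose an FTC-133 mean under 1 TPM, so this count too is a description. HOTAIRM1, which lies at the anterior end of HOXA, had 0.132 and 1.31 TPM in 8505C with CRABP1 and with vector, against 19.8 and 22.8 TPM in FTC-133, and fell by 3.78 on the log2 scale (limma adjusted p = 0.00718). HOXB-AS3 had 0 and 0.103 TPM in 8505C with CRABP1 and with vector, against 7.23 and 7.68 TPM in FTC-133, and fell by 3.01 (limma adjusted p = 0.00948). HAGLROS, at the HOXD cluster, had 0.176 and 0.175 TPM in 8505C with CRABP1 and with vector, against 6.25 and 7.70 TPM in FTC-133, and fell by 2.76 (limma adjusted p = 0.0111). HOTAIR, which is read antisense to posterior HOXC genes and is known for binding Polycomb complexes, had 4.77 and 5.59 TPM in 8505C with CRABP1 and with vector, from 63 and 74 reads, against 0.364 and 0 TPM in FTC-133. It rose by 2.40 on the log2 scale (limma adjusted p = 0.0189). HOTAIR and HAGLR were named after their values were seen.

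HAGLR had reads in 8505C, although the HOXD genes next to it had almost none. This antisense RNA at the HOXD1 end had 5.60 and 6.69 TPM in 8505C with CRABP1 and with vector, from 145 and 174 reads, against 13.1 and 20.1 TPM in FTC-133, while the 9 HOXD genes of those 8505C libraries had 2 and 0 reads. Past 2-fold higher with CRABP1 in FTC-133 were 3 of the 12 noncoding RNAs measured there, all on few reads, beside 6.02% of all genes measured. HOXB-AS4, beside HOXB9, had 15 reads with CRABP1 and 2 with vector, a ratio of 7.74 (1.80 to 69.7), and in 8505C 23 reads with CRABP1 and 26 with vector. MIR196A1, in the same cluster, had 4 reads with CRABP1 and 1 with vector, an interval of 0.408 to 203, and MIR10B 2 reads with CRABP1 and 0 with vector. In 8505C 1 of the 6 measured, HOXC-AS1, was past 2-fold lower, with 3 reads with CRABP1 and 11 with vector, beside 4.07% of all genes measured. Read counts on such short genes in total RNA libraries do not give the mature miRNA.

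The miR-196 family is shown because its genes lie inside the HOXB, HOXC and HOXA clusters and its members are known to cleave or repress HOX messages such as HOXB8; capitals mark the seed, bases 2 to 8, which is the same in both RefSeq sequences. MIR196A2 in HOXC and MIR196B in HOXA were listed at 0 in all 4 libraries.
hsa-miR-196a-5p: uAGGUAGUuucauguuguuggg
hsa-miR-196b-5p: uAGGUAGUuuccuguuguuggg

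Most partners and regulators of HOX proteins were expressed in both lines. The line calls of their lists stand beside 15.6% called lower and 7.99% called higher in 8505C among all genes tested. With CRABP1, 7.77% of all genes measured in 8505C and 10.9% in FTC-133 were past 2-fold. Of protein-coding genes with 20 reads or more, these shares were 0.741% and 3.52%, so counts of 0 in short lists lie near them. Of 11 measured cofactors of the TALE family, which bind DNA beside HOX proteins, 0 were past 2-fold with CRABP1 in either line, with median log2 ratios of 0.18 in 8505C and 0.017 in FTC-133. PBX3 was the 1 called between the lines, with 20.8 and 17.8 TPM in 8505C with CRABP1 and with vector, against 89.8 and 170 TPM in FTC-133 (log2 difference -2.62, limma adjusted p = 0.0132). The PBX3 level in FTC-133 lay 1.90-fold lower with CRABP1 than with vector (1.80 to 2.00), and PBX4 had a plain ratio of 2.34 in 8505C (1.42 to 4.02), from 54 reads with CRABP1 and 23 with vector, which the pseudocount kept under the rule. PKNOX2, the cofactor not measured, had 0 reads in both 8505C libraries, against 1 and 4 reads in FTC-133 with CRABP1 and with vector. MEIS2 had a line difference of -0.79 and PKNOX1 one of 0.73, both under 2-fold. Of 28 Polycomb genes, 0 were past 2-fold with CRABP1 in either line (medians 0.011 in 8505C and 0.017 in FTC-133) and 2 fell between the lines. They were EZH2, the enzyme that writes the repressive H3K27 mark, with 44.2 and 28.3 TPM in 8505C with CRABP1 and with vector against 70.4 and 76.8 TPM in FTC-133, and PCGF5, with 28.6 and 25.3 TPM in 8505C against 59.6 and 55.6 TPM in FTC-133. BMI1 followed with a log2 difference of -0.83. Of 23 Trithorax and other activating genes, 0 were past 2-fold with CRABP1 (medians 0.022 in 8505C and 0.0093 in FTC-133) and 1 fell between the lines, KMT2C, with 19.6 and 19.3 TPM in 8505C with CRABP1 and with vector against 40.2 and 45.6 TPM in FTC-133. KMT2E had a log2 line difference of -0.82, and KMT2A, a known activator of HOXA genes in leukaemia, one of 0.71.

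Of the genes that make, sense or degrade retinoic acid, 7 were measured in each line, with median log2 ratios of -0.063 in 8505C and 0.19 in FTC-133. Among all genes measured in FTC-133, 4.92% were past 2-fold lower with CRABP1. RARB, a receptor gene that retinoic acid itself induces, had 17.2 TPM with CRABP1 and 40.9 TPM with vector in FTC-133, the 1 of the 7 past 2-fold there, and 25.7 TPM with CRABP1 and 27.8 TPM with vector in 8505C. Between the lines, ALDH1A3, which makes retinoic acid, and RXRA, a receptor partner, rose in 8505C, and CYP26B1, which degrades retinoic acid, fell. Among all genes tested, 7.99% were called higher and 15.6% lower. ALDH1A3 had 30.8 and 31.0 TPM in 8505C with CRABP1 and with vector, against 8.38 and 4.58 TPM in FTC-133 (log2 difference 2.14, limma adjusted p = 0.012), RXRA 24.4 and 22.4 TPM against 7.03 and 7.997 TPM (1.52, limma adjusted p = 0.0106), and CYP26B1 1.42 and 1.22 TPM against 9.22 and 6.74 TPM (-1.94, limma adjusted p = 0.014).

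Of 22 genes that flank the HOX clusters, 17 were measured in each line. EVX1, EVX2, PRAC1 and PRAC2, close neighbours of HOX genes, were at 0 in both 8505C libraries, and in FTC-133 EVX2 had 4 and 2 reads with CRABP1 and with vector and the other 3 had 0. Of the 17 measured, 0 were past 2-fold with CRABP1 in either line and 1 fell between the lines, SNX10, with 3.53 and 4.36 TPM in 8505C with CRABP1 and with vector against 12.01 and 7.94 TPM in FTC-133 (log2 difference -1.13, limma adjusted p = 0.0488). Their median log2 line difference was -0.033. CALCOCO1, beside HOXC, and SKAP1, beside HOXB, had line differences of 0.92 and -0.97 that were under 2-fold. Of 5 other homeobox genes tested between the lines, 1 rose and 2 fell. With CRABP1, 7.77% of all genes measured in 8505C and 10.9% in FTC-133 were past 2-fold. For this list and the flanking genes alike, the background between the lines was 7.99% higher and 15.6% lower among all genes tested. MEOX2, a mesodermal factor, had 25.02 TPM with CRABP1 and 2.01 TPM with vector in FTC-133, a ratio of 12.4 (8.51 to 19.4), the largest of that list, and 0.0832 and 0.0829 TPM in 8505C with CRABP1 and with vector. MSX1, named after its values were seen, was the one that rose. DLX1 and DLX2, which lie elsewhere on the HOXD chromosome, fell in 8505C by 3.67 and 1.81 on the log2 scale (limma adjusted p = 0.005 and 0.0163).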

How the data were processed

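Total RNA of 4 libraries, 1 per group, was sequenced on Illumina instruments. The deposited values are TPM of 58884 Ensembl genes, each column summing to 1000000. The submitters' tools, per the submitters' processing notes, included featureCounts 2.0.0, Trimmomatic 0.38 and FastQC, with the GRCh38 build. Aligner, annotation and strandedness: not given in the sources used here. If strand was ignored, reads of a gene and its antisense partner cannot be told apart, and the exons of 24 of the 38 HOX genes overlap another gene of GENCODE 29.

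The following was computed from the TPM. Reads were recovered as TPM times the GENCODE 29 exon length over 1 step per library. Low values, up to 50 reads, fell within 0.02 of a whole read in 90.5% to 91.6% of cases; in all 4 libraries this held for 23 HOX genes, and the reads of the others were rounded. From them came 95% Clopper-Pearson intervals of TPM ratios and floors of 3 reads, which cover counting error only. Differences are log2(TPM + 1), which understates those of low genes, for genes averaging 1 TPM or more; printed folds with intervals are plain TPM ratios. limma 3.58.1 (R 4.3.3) with a mean-variance trend was fitted to all 4 libraries with line and transfection as terms, two-sided, with Benjamini-Hochberg adjustment over 19513 genes, after a run on simulated data with known changes. No replicate number pairs the libraries; the line or transfection term is the block. Every HOX gene with at least 1 TPM in any library was named, and of the other lists those past 2-fold with CRABP1 or among the 3 largest line differences; 2 cell type markers are not reported here. The HOX members and all lists were chosen with earlier results of these data known. Alternatives were a pseudocount of 0.1, no filter or 5 TPM, median-ratio scaling, removal of mitochondrial genes, a 1.5-fold rule, no trend, no other term, leaving out each library and, added after seeing the data, protein-coding genes of 20 reads or more. Scripts ran in Python 3.11.15 (SciPy 1.17.1, NumPy 2.4.6, pandas 2.3.3).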

Additional observations from a re-analysis of the deposited data

Results flagged for a closer look

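HOXC4 was higher with CRABP1 than with vector in 8505C, by a TPM ratio of 12.04 from 12 reads and 1 read, and lower with CRABP1 than with vector in FTC-133, by a ratio of 0.425 from 86 and 208 reads. Each line had 1 library per group, the directions were opposite, and the difference between the lines was not tested. Its 8505C level was under 1 TPM in both libraries.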

How the results depend on the processing

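Within a line, the number of HOX genes past 2-fold higher with CRABP1 in FTC-133 was 1 as reported, 3 with a pseudocount of 0.1, 2 without mitochondrial genes and 3 at 1.5-fold; in 8505C it was 0, and 3 at 1.5-fold. The log2 ratios of single HOX genes under the alternatives, 120 values in FTC-133 and 49 in 8505C, stayed within the counting interval of the reported ratio. Over both lines CRABP1 gave 0 calls under every alternative run, with HOXC4 turning to a log2 difference of 0.63 with a pseudocount of 0.1. Between the lines, 14 lower and 1 higher call became 4 and 0 with no filter. At 5 TPM there were 6 and 0, because the other called genes, HOXC13 among them, were under that mean and not tested. HOXA5, HOXB3, HOXB4, HOXB7, HOXB9 and HOXC4 were still tested and kept their call. Leaving out 1 library at a time gave 0 to 9 lower and 0 to 1 higher calls. Without the replicate block, that is without the term for the other factor, there were 13 lower and 1 higher calls, with HOXB9 lost, and 0 calls for CRABP1. No paired analysis by replicate number was possible because each group has 1 library. Of the values of single genes between the lines, 155 kept direction and call, 54 lost the call and 6 turned direction. HOXC8 turned to 0.057 with median-ratio scaling. With 1 library left out, HOXC8 ranged between -0.29 and 0.11, HOXA2 between -0.011 and 0.45 and HOXC9 between -0.25 and 0.62; these 3 genes were not called as reported either. Removing mitochondrial genes, which rescales each library, raised the summed TPM in 8505C with CRABP1, 8505C with vector, FTC-133 with CRABP1 and FTC-133 with vector to 19.3, 21.1, 52.8 and 54.5 for HOXA, 11.7, 7.42, 195 and 160 for HOXB and 35.0, 27.6, 31.7 and 36.2 for HOXC, and HOXD to 22.6 and 20.5 in FTC-133 with CRABP1 and with vector. Median-ratio scaling gave 132.5 for HOXB in FTC-133 with CRABP1. Depth limits the genes under about 20 reads, whose intervals span several fold. The cause of other changes was not tested.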
